A study of Sus scrofa with 12 samples.

Results

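Mitochondrial carriers were measured in the liver of suckling piglets with and without pronounced signs of swine inflammation and necrosis syndrome (SINS), a condition in which piglets show swelling, redness and necrosis of tail, ears, teats and claws. The genes were taken by name, as all transcripts on the array whose annotation gives a single symbol of the solute carrier family 25 or one of MPC1, MPC2, UCP2, UCP3, MTCH1 and MTCH2, with the carnitine carrier left out. This gave 39 transcripts of 37 genes, out of 12307 genes with a single symbol and 25388 transcripts in all, and a gene with several transcripts is represented by the one with the highest mean. Liver of 12 piglets was hybridized to 1 Affymetrix porcine gene array each, 6 of the SINS low group (no or only low-grade signs) and 6 of the SINS high group (high-grade signs). All piglets were offspring of Baden-Württemburg Genetics hybrid sows and Pietrain semen, and were scored and sampled on the third day of life. The paper does not state their sex. At sampling they were anaesthetized and then euthanized with pentobarbital, and the paper names no treatment before that. The groups are the extremes of a larger scored herd, so they differ by selection on clinical score and not by an applied treatment. The labels name neither litter nor dam, and the ranges of the numbers in the sample labels do not overlap between the groups, so whatever these numbers stand for cannot be told apart from the group.

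The inner mitochondrial membrane lets almost no charged metabolite pass by itself. The SLC25 proteins are small membrane proteins, built from repeats of the same fold, that open to one side of the membrane at a time and so exchange ADP for ATP, import phosphate, and move citrate, malate, 2-oxoglutarate, amino acids, iron and cofactors. In liver they join the cytosolic and mitochondrial steps of gluconeogenesis, the urea cycle, lipid synthesis and heme synthesis. Pyruvate enters through a separate pair of proteins, MPC1 and MPC2, and a few relatives of the carriers sit in the outer membrane and carry no metabolite.

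All values are log2 values that the authors obtained by RMA, and a positive log2(FC) means a higher value in the SINS high group. A gene is called up- or down-regulated at the filter of the study, a fold change above 1.3 (0.38 on the log2 scale) and an unadjusted p below 0.05, here from limma. Exact p-values come from a two-sided permutation test that enumerates the 924 possible divisions of 12 piglets into groups of 6, for which the smallest possible p is 0.00216. Array medians ranged from 4.36 to 4.42 and correlations between arrays from 0.964 to 0.988. Precision is limited by the number of arrays. The filter called 538 transcripts up (2.12%) and 773 down (3.04%). After Benjamini-Hochberg adjustment over all transcripts 0 of 25388 passed with limma (smallest adjusted p = 0.254) and 0 with the methods' t-test, against 2884 and 2631 at an unadjusted p below 0.05. Of 10 listed hepatocyte markers 6 were measured and 0 were called, with a median log2(FC) of 0.00 and a mean level of 11.52 to 11.67 per SINS low piglet and 11.48 to 11.61 per SINS high piglet. Endothelial markers had a log2(FC) above 0 in 7 of 7 measured (1 up-regulated, median 0.30), and cell cycle genes below 0 in 7 of 7 (0 called, median −0.60). Lymphocyte markers had 1 of 6 up-regulated (median 0.12) and bile duct markers 0 of 4 called (median −0.10). In tissue RNA, fewer cells of a type and less RNA per cell cannot be told apart.

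In the SINS high group, SLC25A11 and SLC25A22 were the 2 down-regulated genes among the 37 carriers, with 0 up-regulated and 35 outside the filter. The paper, from the same arrays, also lists both as down-regulated. The 2 genes are 5.41% of the carriers, beside 3.8% of all 12307 genes that were down-regulated, 2.3% that were up-regulated and 6.1% called in either direction, so the carriers were called about as often as genes in general. At an unadjusted p below 0.05 alone there were 5 carriers (13.5%), 3 lower and 2 higher, beside 13.1% of all genes, 7.98% lower and 5.16% higher. The log2(FC) was below 0 for 23 of the 37 carriers (62.2%) and for 49.0% of all genes, and its median was −0.09 over the carriers and 0.00 over all genes. The range went from −0.62 for SLC25A11 to 0.36 for SLC25A47. In 0 of the 37 did the 6 SINS high piglets all lie on one side of the 6 SINS low piglets, a pattern found in 0.463% of all genes. The smallest adjusted p among the carriers was 0.280.

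**Figure D1:**
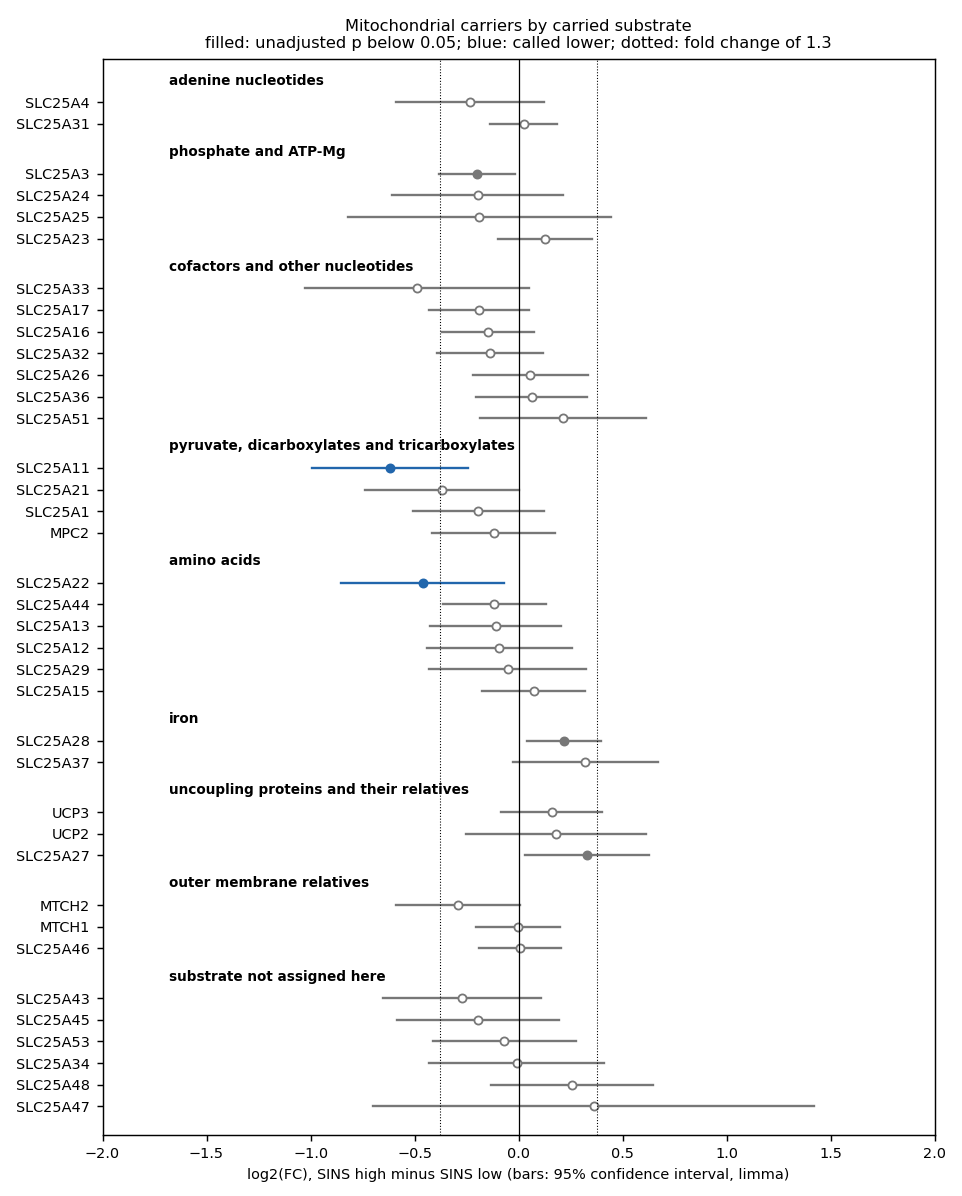
The log2(FC) of each of the 37 carriers (x axis, SINS high minus SINS low, n = 6 each) with its 95% confidence interval from limma, ordered by carried substrate. The intervals of SLC25A11 and SLC25A22 lie below 0 with a log2(FC) beyond the dotted line of a 1.3-fold change, those of SLC25A28 and SLC25A27 lie above 0, that of SLC25A3 lies below 0, and all others include 0.

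Carriers of pyruvate, dicarboxylates and tricarboxylates were the substrate group with the lowest median log2(FC), −0.28, and all 4 measured members had a log2(FC) below 0. SLC25A11, the 2-oxoglutarate/malate carrier, exchanges malate for 2-oxoglutarate and is one of the membrane steps of the malate-aspartate shuttle, which brings reducing equivalents from cytosolic NADH into mitochondria. Its log2 value was 8.04, 8.18 and 8.77 (lowest, median, highest) in the SINS low group and 7.31, 7.61 and 8.37 in the SINS high group. Hence 5 of the 6 SINS high piglets lay below every SINS low piglet, and only SINS high replicate 6, at 8.37, lay among them. The means were 8.30 ± 0.29 and 7.68 ± 0.37 (SD, n = 6), a 1.54-fold lower level in the SINS high group (log2(FC) −0.62, standard error 0.18, exact p = 0.0108, adjusted p = 0.280 from limma). It was the single carrier that also stayed called at a fold change above 1.5. Without SINS high replicate 6 the log2(FC) of SLC25A11 was −0.76. It was then the 1 carrier among 171 of 25388 transcripts with an adjusted p below 0.05 in limma. Since replicate 6 held the highest SLC25A11 value of its group, leaving it out enlarges the difference by construction and adds no evidence. Without that array, 6.2% of all genes were down-regulated.

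The other members of this substrate group did not pass the filter. SLC25A21, the oxodicarboxylate carrier that imports 2-oxoadipate from the breakdown of lysine and tryptophan, had 6.08, 6.89 and 7.17 (lowest, median, highest) in the SINS low group and 6.06, 6.42 and 6.89 in the SINS high group. The groups overlapped, with SINS low replicate 5 at 6.08 among the lowest values of all 12 piglets, and the log2(FC) was −0.37 (standard error 0.17, exact p = 0.0844, adjusted p = 0.443 from limma). SLC25A21 passed the filter as lower with array weights, with median centring, without SINS low replicate 5 and without SINS high replicate 6. SLC25A1, which exports citrate to the cytosol for fatty acid and sterol synthesis, had −0.19 (standard error 0.15, exact p = 0.245), with 7.96 to 8.72 in the SINS high and 8.18 to 8.78 in the SINS low group. MPC2, a subunit of the mitochondrial pyruvate carrier, had −0.12 (standard error 0.14, exact p = 0.42), and its partner MPC1 was not analysed here.

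Among the 6 measured carriers of amino acids, 1 was down-regulated, 5 did not pass the filter, and the median log2(FC) was −0.10 (−0.02 without SINS high replicate 3). SLC25A22, a carrier that takes glutamate into the matrix together with a proton, had 7.18, 7.26 and 7.43 (lowest, median, highest) in the SINS low group, a narrow range, and 6.24, 6.82 and 7.63 in the SINS high group. Of the SINS high piglets, 5 lay below every SINS low piglet while SINS high replicate 6, at 7.63, lay above all of them. The SD was 0.11 in the SINS low and 0.49 in the SINS high group. The log2(FC) of −0.46 (standard error 0.18) corresponded to a 1.38-fold lower level, with p = 0.0241 and adjusted p = 0.370 from limma, whereas the exact permutation test gave p = 0.0519. The call was lost without SINS high replicate 1 (log2(FC) −0.38) and without SINS high replicate 3 (−0.34), and the value was −0.62 without SINS high replicate 6.

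The aspartate/glutamate carriers, the other membrane step of the malate-aspartate shuttle, did not pass the filter. SLC25A13 (citrin), the form typical of liver, which also supplies aspartate to the urea cycle, had a log2(FC) of −0.11 (95% confidence interval −0.43 to 0.21, exact p = 0.506), with values from 7.94 to 8.75 in the SINS low group and from 7.99 to 8.67 in the SINS high group. SLC25A12 (aralar), the form known from muscle and brain, had −0.09 (95% confidence interval −0.44 to 0.26). Both intervals reach the size of the filter in the negative direction. SLC25A15, the ornithine carrier of the urea cycle, had 0.07 with an interval of −0.18 to 0.32, which excludes a 1.3-fold change in either direction. SLC25A29, a carrier of basic amino acids, had −0.05 in its brighter and −0.01 in its dimmer transcript. SLC25A44, a carrier of branched-chain amino acids, had −0.12 (95% confidence interval −0.36 to 0.13).

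Among the carriers that serve the ATP synthase with its substrates, ADP and phosphate, SLC25A3 had an unadjusted p below 0.05 without reaching the fold change of the filter. SLC25A3, the phosphate carrier, had 9.38, 9.43 and 9.67 (lowest, median, highest) in the SINS low group and 9.11, 9.25 and 9.41 in the SINS high group. In 4 of the 6 SINS high piglets it was below every SINS low piglet, and the other 2 lay at 9.39 and 9.41. The log2(FC) of SLC25A3 was −0.20 (standard error 0.08, exact p = 0.013, adjusted p = 0.393 from limma), a 1.15-fold lower level, less than the 1.3-fold change of the filter. SLC25A4, the ADP/ATP carrier known from heart and muscle, had 8.26, 8.78 and 9.35 in the SINS low and 8.23, 8.52 and 8.86 in the SINS high group, with partly overlapping groups and a difference of −0.24 on the log2 scale (standard error 0.17, exact p = 0.225). SLC25A31, the ADP/ATP carrier of germ cells, was among the dimmest 25% of transcripts and lay between 1.47 and 1.70 in the SINS low and between 1.45 and 1.66 in the SINS high group (log2(FC) 0.02). A further transcript, annotated jointly to 2 ADP/ATP carriers, could not be assigned to either gene with the annotation used here and is not among the 37. The paper lists SLC25A5, an ADP/ATP carrier that is not among the 37, as down-regulated. Whether this is the same transcript was not tested. The jointly annotated transcript had 8.11 to 8.60 in the SINS low and 7.56 to 8.34 in the SINS high group. In it, 4 SINS high piglets lay below every SINS low piglet (log2(FC) −0.42, standard error 0.14, exact p = 0.0281, adjusted p = 0.314 from limma). This transcript passed the filter and was down-regulated, 1.33-fold lower in the SINS high group. The adenine nucleotide group of 2 genes therefore leaves out the ADP/ATP carriers read by that transcript.

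The ATP-Mg/phosphate carriers adjust the size of the adenine nucleotide pool in response to calcium, and 3 of them were measured. SLC25A23 had a log2(FC) of 0.13 (95% confidence interval −0.10 to 0.35), SLC25A24 −0.20 (−0.61 to 0.21) and SLC25A25 −0.19 (−0.82 to 0.44). The wide interval of SLC25A25 came from 2 piglets, SINS low replicate 6 at 7.73 and SINS high replicate 3 at 7.47, whereas the other 10 lay between 5.77 and 6.50.

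**Figure D2:**
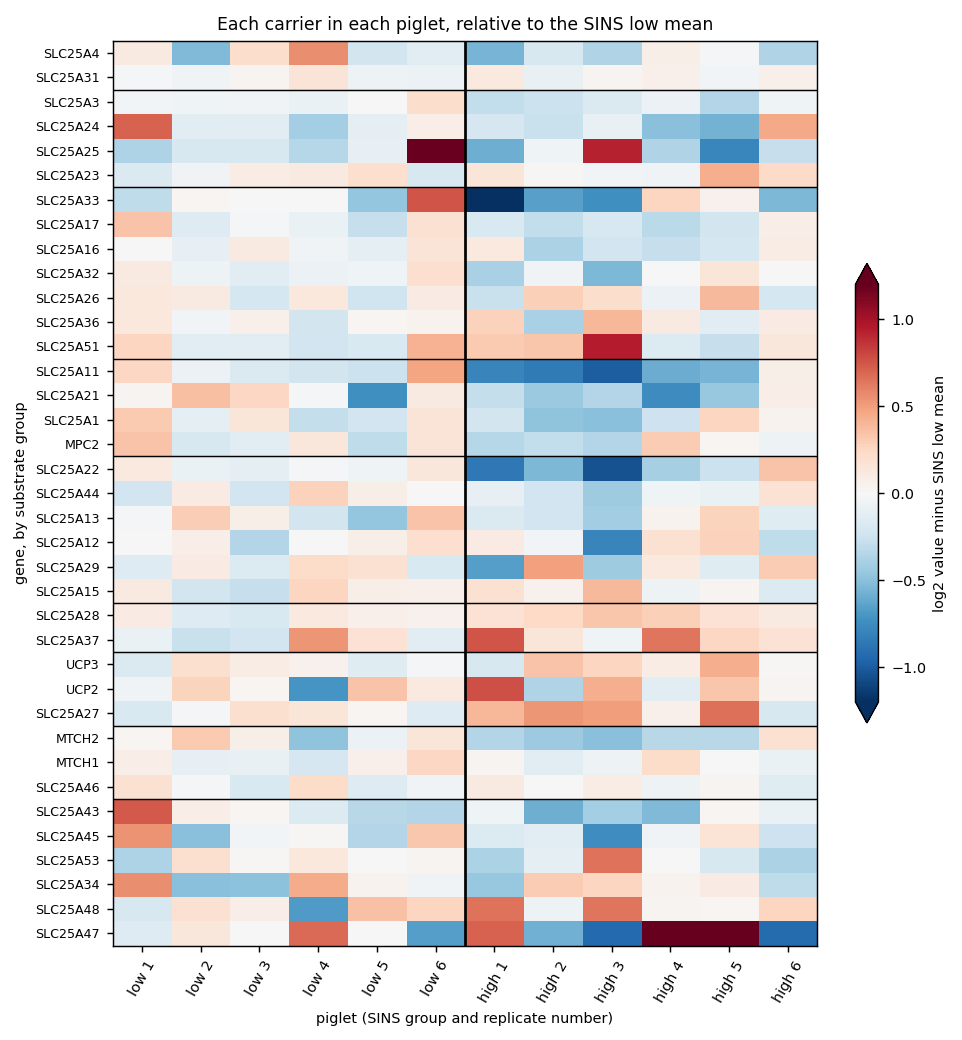
Each of the 37 carriers (rows, in the substrate order adenine nucleotides, phosphate and ATP-Mg, cofactors, pyruvate and di- and tricarboxylates, amino acids, iron, uncoupling proteins, outer membrane, not assigned) in each of the 12 piglets (columns), coloured by its log2 value minus the SINS low mean, with stronger deviations than the scale drawn at its end colour. SLC25A11 and SLC25A22 are lower in SINS high replicates 1 to 5 and not in replicate 6, and SLC25A47 is highest in SINS high replicates 4 and 5.

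Carriers of cofactors and of nucleotides other than ADP and ATP had 0 of 7 members called, with a median log2(FC) of −0.14 (−0.09 without SINS high replicate 1 and −0.06 without replicate 3). SLC25A33, which carries pyrimidine nucleotides into mitochondria, had the largest difference, with 6.10, 6.57 and 7.32 (lowest, median, highest) in the SINS low and 5.25, 5.98 and 6.83 in the SINS high group. There were 4 SINS high piglets below every SINS low piglet and 2, replicates 4 and 5 at 6.83 and 6.62, in the upper part of the SINS low range. The log2(FC) of SLC25A33 was −0.49 (standard error 0.25, exact p = 0.126, adjusted p = 0.484 from limma), and it passed the filter when SINS low replicate 5, SINS high replicate 4 or SINS high replicate 5 was left out (−0.58 to −0.64). SLC25A51, the carrier of NAD, had 6.66 to 7.31 in the SINS low and 6.61 to 7.83 in the SINS high group (log2(FC) 0.21, standard error 0.19, exact p = 0.366), with the highest value in SINS high replicate 3. The peroxisomal SLC25A17 had −0.19 (exact p = 0.117), SLC25A16, linked to coenzyme A transport, −0.15 (exact p = 0.16), and the folate and FAD carrier SLC25A32 −0.14 (exact p = 0.314). SLC25A26, which brings S-adenosylmethionine into the matrix, had 0.06 and the pyrimidine nucleotide carrier SLC25A36 0.06, and the intervals of both, −0.22 to 0.33 and −0.20 to 0.33, exclude a 1.3-fold change.

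The mitoferrins, which import iron for heme and iron-sulfur cluster synthesis, were the substrate group with the highest median log2(FC), 0.27, although neither of the 2 passed the filter. SLC25A28 (mitoferrin 2, the form of most tissues) had 5.12, 5.36 and 5.42 (lowest, median, highest) in the SINS low group and 5.41, 5.51 and 5.63 in the SINS high group. Thus 5 SINS high piglets lay above every SINS low piglet, and the remaining one, at 5.41, lay just below the highest of them. Its log2(FC) was 0.22 (standard error 0.08, exact p = 0.00433, adjusted p = 0.362 from limma), a 1.16-fold higher level. SLC25A37 (mitoferrin 1, the form of red blood cell precursors) had 4.96, 5.12 and 5.75 in the SINS low and 5.17, 5.44 and 5.98 in the SINS high group, with a difference of 0.32 on the log2 scale (standard error 0.16, exact p = 0.106, adjusted p = 0.477). The filter was passed by SLC25A37 without SINS low replicate 4 or SINS high replicate 3 and with array weights.

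The liver of newborn mammals still makes red blood cells, and most erythroid markers moved in the same direction as the mitoferrins. Of 16 listed markers 12 were measured and 7 were up-regulated, beside 2.3% of all genes, with a median log2(FC) of 0.53. The log2(FC) was above 0 for 10 of the 12 and below 0 for TFRC (−0.74, standard error 0.42, exact p = 0.167) and DMTN (−0.03). The mean level of the 12 was 4.04 to 5.02 per SINS low piglet and 4.69 to 5.38 per SINS high piglet. The highest SLC25A37 value of the SINS low group (replicate 4, 5.75) and of the SINS high group (replicate 1, 5.98) came from the piglets with the highest erythroid mean of their group (5.02 and 5.38). Not all piglets followed this order. SINS low replicate 2, with an erythroid mean of 4.625, had the lowest SLC25A37 value of its group (4.96). SLC25A28 was highest in SINS high replicate 3 (5.63), whose erythroid mean was 4.70. In the heme synthesis list, ALAS2, the erythroid form of the first enzyme, was up-regulated (log2(FC) 0.72, standard error 0.19, adjusted p = 0.280 from limma), FECH, which inserts the iron, had 0.24 (standard error 0.09), and the remaining 5 of 7 lay between −0.11 and 0.08. What part erythroid cells have in the mitoferrin values was not tested.

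The uncoupling proteins and their relatives were the other group in which all measured members, 3 of 3, had a log2(FC) above 0, with a median of 0.18 (0.29 without SINS high replicate 2) and 0 called. SLC25A27 (UCP4), known in human and mouse mainly from brain, had 7.77, 7.95 and 8.14 (lowest, median, highest) in the SINS low group and 7.76, 8.40 and 8.61 in the SINS high group. There were 4 SINS high piglets above every SINS low piglet, while SINS high replicate 6 had the lowest value of all 12. The log2(FC) of SLC25A27 was 0.33 (standard error 0.14, exact p = 0.0519, adjusted p = 0.388 from limma), a 1.26-fold higher level, and it passed the filter without SINS high replicate 4 (0.38) or 6 (0.43). UCP2, which in liver is known mainly from Kupffer cells, had 0.18 (standard error 0.20, exact p = 0.455), with 4.30 to 5.35 in the SINS low and 4.65 to 5.78 in the SINS high group. Kupffer cell markers had 3 of 9 measured (12 listed) up-regulated, beside 2.3% of all genes, with a median of 0.30 and 1 of the 9 below 0. Their mean level was 7.28 to 7.87 in the SINS low and 7.55 to 8.23 in the SINS high group. Their part in the value of UCP2 was not tested. UCP3, the form of muscle and brown fat and the neighbour of UCP2 in the pig genome, had 0.16 (standard error 0.11, exact p = 0.184), and striated muscle markers had 0 of 5 measured (11 listed) called.

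The carrier relatives of the outer membrane had 0 of 3 called. MTCH2, which inserts proteins into the outer membrane, had 8.62, 9.15 and 9.41 (lowest, median, highest) in the SINS low and 8.60, 8.76 and 9.28 in the SINS high group. In the latter, 5 piglets lay between 8.60 and 8.77 and SINS high replicate 6 lay apart at 9.28. The log2(FC) of MTCH2 was −0.29 (standard error 0.14, exact p = 0.0801, adjusted p = 0.447 from limma), and it passed the filter without SINS high replicate 6 or SINS low replicate 4 (−0.39 each). Its relative MTCH1 had 0.00 (95% confidence interval −0.21 to 0.20) and SLC25A46, which acts in the shaping of the outer membrane, 0.01 (−0.19 to 0.20). For both, a 1.3-fold change lies outside the interval.

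**Figure D3:**
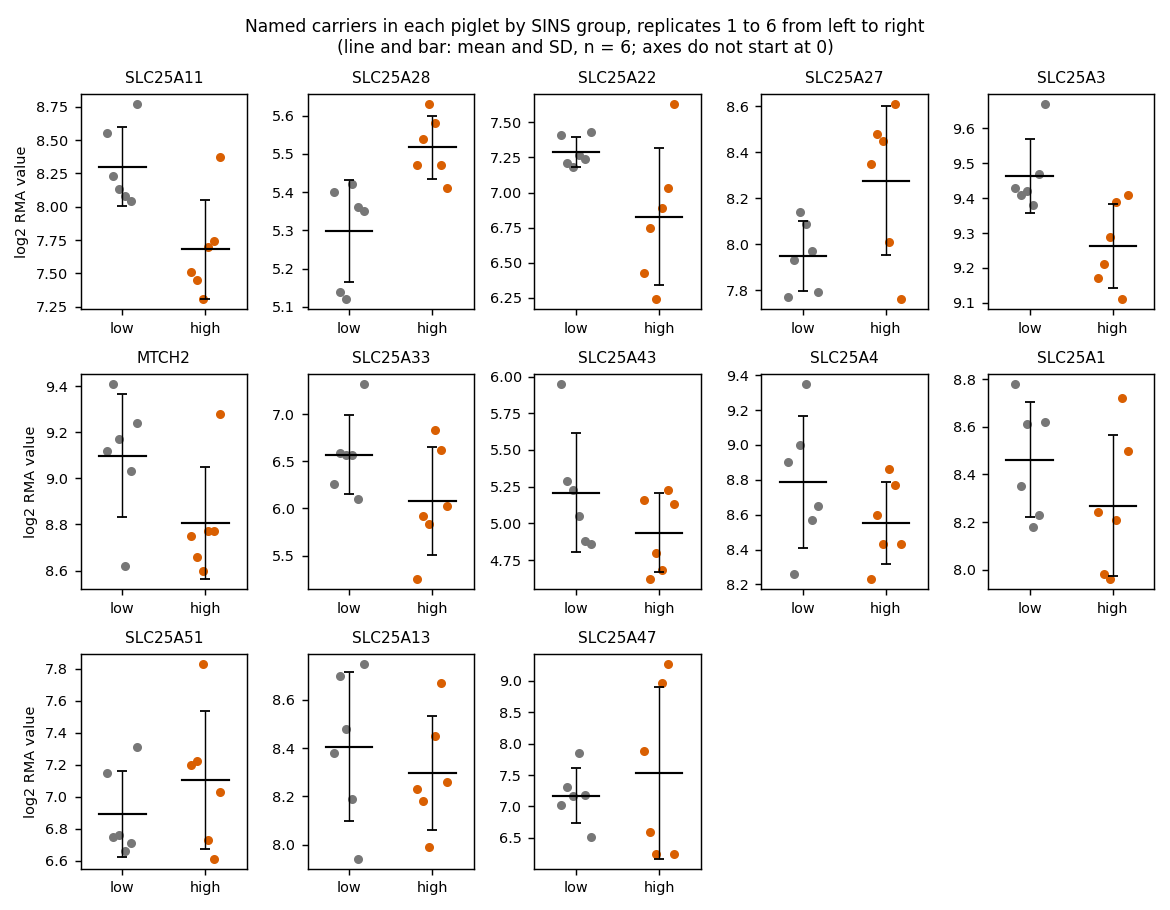
Log2 values (y axis) of 13 carriers in the 6 SINS low and 6 SINS high piglets, replicates 1 to 6 from left to right, with mean and SD and ordered by the p of limma from the top left. SLC25A11 and SLC25A22 have 5 SINS high piglets below all SINS low piglets and SLC25A28 has 5 above them, while SLC25A47 has 3 SINS high piglets above and 2 below all SINS low piglets.

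Of the 6 members without an assigned substrate, 0 were called, and SLC25A47 varied most of all 37 carriers. SLC25A47 is a carrier found almost only in liver in human and mouse. Its log2 value was 6.51, 7.18 and 7.85 (lowest, median, highest) in the SINS low group and 6.24, 7.24 and 9.27 in the SINS high group. Thus the SINS high group spanned both ends of the 12 piglets, with replicates 5 and 4 at 9.27 and 8.96 and replicates 3 and 6 at 6.24 and 6.25. The SD was 1.37 in the SINS high and 0.43 in the SINS low group, and the log2(FC) of 0.36 had a standard error of 0.50 (exact p = 0.539). It was 0.01 without SINS high replicate 5, 0.07 without replicate 4 and 0.62 without replicate 3 or 6. In a dimmer transcript of SLC25A47, replicates 4 and 5 of the SINS high group were again the highest of all 12 piglets, at 8.23 and 7.90, and the log2(FC) was 0.34 (standard error 0.29, exact p = 0.351). The neighbouring gene, SLC25A29, did not share this pattern, with 5.35 and 5.09 in those 2 piglets and 4.57 to 5.73 in the group.

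**Figure D4:**
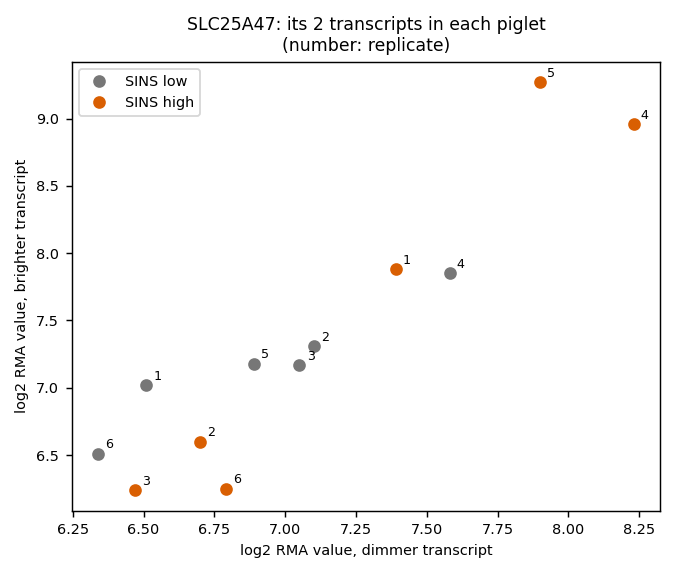
The 2 transcripts of SLC25A47 in each piglet, as log2 values of the dimmer (x axis) and the brighter transcript (y axis), with the replicate number beside each point. SINS high replicates 4 and 5 have the highest values in both transcripts (8.23 and 7.90, and 8.96 and 9.27).

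The remaining members of this group lay nearer to 0. SLC25A43 had 4.86, 5.14 and 5.95 (lowest, median, highest) in the SINS low and 4.62, 4.97 and 5.23 in the SINS high group, where 3 piglets lay below every SINS low piglet (log2(FC) −0.27, standard error 0.18, exact p = 0.206). SLC25A48 had 0.26 (exact p = 0.249), SLC25A45 −0.20 (exact p = 0.361), SLC25A34 −0.01 (exact p = 0.974), and SLC25A53, the second of the 2 carriers among the dimmest 25% of transcripts, −0.07 (exact p = 0.71).

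Whether close relatives moved apart was tested for 8 pairs in which both genes were measured, as the difference of the 2 log2 values within each piglet. No pair passed. The smallest exact p was 0.0996 (adjusted over the 8 pairs, 0.597) for MTCH1 minus MTCH2, where the difference was −1.41 ± 0.25 in the SINS low and −1.12 ± 0.28 in the SINS high group (SD, n = 6), a change of 0.29. For SLC25A33 minus SLC25A36, the pyrimidine nucleotide carriers, the change was −0.55 (exact p = 0.149, adjusted 0.597). The mitoferrins, SLC25A28 minus SLC25A37, changed by −0.10 (exact p = 0.574), the aspartate/glutamate carriers, SLC25A12 minus SLC25A13, by 0.02 (exact p = 0.926), and UCP2 minus UCP3 by 0.02 (exact p = 0.944). The 3 pairs of ATP-Mg/phosphate carriers had exact p-values from 0.271 to 0.985. SLC25A11 and SLC25A22 had no measured partner among these pairs.

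The piglets differed in how far the carriers as a whole lay from the SINS low mean. The median deviation over the 37 genes was −0.06 to 0.11 in the SINS low piglets. In the SINS high group, replicates 1, 2 and 3 had −0.18, −0.13 and −0.17, and replicates 4, 5 and 6 had −0.04, 0.02 and 0.01. For the pyruvate, dicarboxylate and tricarboxylate group the deviation was −0.22 to −0.46 in SINS high replicates 1 to 5 and 0.05 in replicate 6, beside −0.28 to 0.28 in the SINS low piglets. For the mitoferrins it was 0.14 to 0.46 in all 6 SINS high piglets and −0.21 to 0.32 in the SINS low piglets.

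Several genes that work next to the carriers were down-regulated, while the difference between their lists and the carriers was not tested. Over all 12307 genes 3.8% were down-regulated, and in lists as short as these 1 call is a large share. Of the 3 outer membrane channels (VDAC), through which metabolites reach the carriers, all had a negative log2(FC) and 1 was down-regulated. VDAC2 lay between 7.93 and 8.85 in the SINS low and between 7.48 and 8.27 in the SINS high group (log2(FC) −0.59, standard error 0.17, exact p = 0.0108, adjusted p = 0.280 from limma), and VDAC3 (−0.30, exact p = 0.0152) and VDAC1 (−0.36, exact p = 0.0195) did not reach a 1.3-fold change. Of 10 measured genes of the route that imports newly made carriers, 3 were down-regulated and 0 up-regulated, with a median of −0.25. Among them TOMM20, a receptor of the outer membrane, lay at 7.46 to 8.28 in the SINS low and 6.49 to 7.61 in the SINS high group (log2(FC) −0.70, standard error 0.18, exact p = 0.00866, adjusted p = 0.280). TIMM9, one of the small chaperones that guide carriers across the intermembrane space, had −0.57 (standard error 0.15, exact p = 0.00866), and TIMM8A had −0.50 (standard error 0.18, exact p = 0.0346).

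The enzymes on the matrix side gave 2 calls in each of 2 lists, beside 3.8% of all genes down-regulated. Of 19 measured genes of the citric acid cycle and pyruvate entry, 2 were down-regulated and 0 up-regulated, with a median of −0.15. DLAT, the acetyltransferase core of pyruvate dehydrogenase, had −0.57 (standard error 0.14, exact p = 0.00649, adjusted p = 0.280 from limma), and IDH3A, the catalytic subunit of the NAD-dependent isocitrate dehydrogenase, −0.48 (standard error 0.14, exact p = 0.013). Of 11 measured genes of the ATP synthase list, all had a negative log2(FC), with a median of −0.25, and 2 were down-regulated, ATP5G1 (−0.54, standard error 0.19, exact p = 0.039) and ATP5G3 (−0.44, standard error 0.19, exact p = 0.0736), both encoding subunit c of the rotor. ATP5O, which joins the catalytic head to the stalk, had −0.33 (standard error 0.11, exact p = 0.0173), less than a 1.3-fold change. Of 6 listed enzymes of the malate-aspartate shuttle (GOT1, GOT2 measured) and the glycerophosphate shuttle (GPD1, GPD2 measured), 4 were measured and 0 were called. Their values lay between −0.26 and −0.15, the smallest p belonging to GPD2 (exact p = 0.193) and GOT1 (exact p = 0.232). Malate dehydrogenase was not among the 4, and the paper lists a transcript of the cytosolic form as down-regulated. Other inner membrane transporters had 2 of 10 down-regulated, SFXN4 of the sideroflexins (−0.39, standard error 0.13) and the calcium uniporter MCU (−0.39, standard error 0.14), with a median of −0.07. The 5 measured regulators of mitochondrial number had 0 called and a median of 0.05, with −0.24 (standard error 0.11) for TFAM, which packages and transcribes mitochondrial DNA, and 0.13 (standard error 0.10) for the coactivator PPARGC1B.

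**Figure D5:**
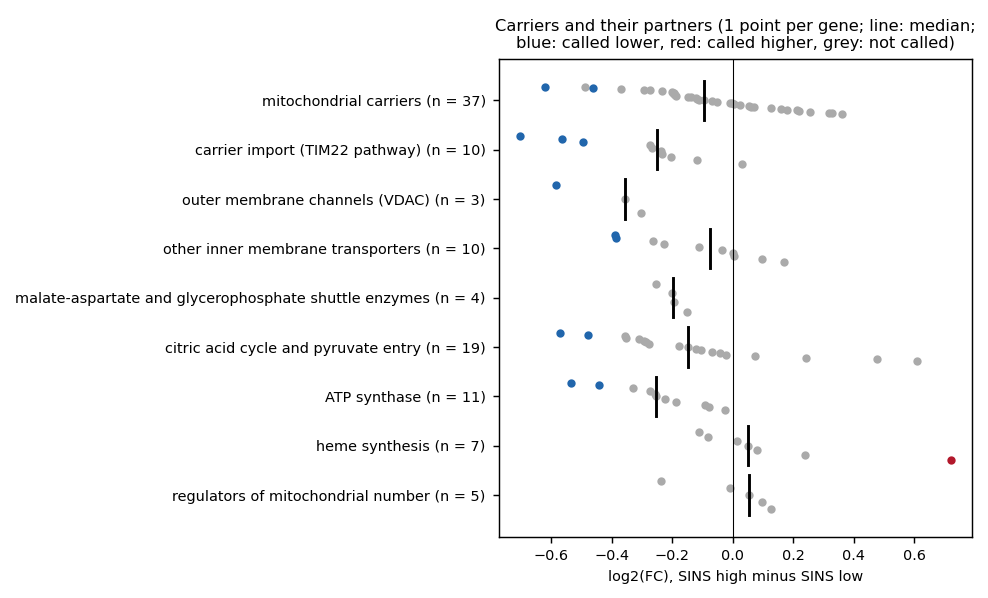
The log2(FC) (x axis, SINS high minus SINS low) of the 37 carriers and of the genes in 8 lists of their partners, 1 point per gene with the median as a line. The medians of carrier import, VDAC and ATP synthase are −0.25, −0.36 and −0.25, beside −0.09 for the carriers, and ALAS2 of heme synthesis is the 1 gene called higher.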

How the data were processed

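Liver RNA of 12 piglets was measured on 1 array each, 6 per group. The authors ran RMA in Affymetrix Expression Console, which subtracts background, normalizes the arrays to each other and combines the probes of a transcript, and deposited the resulting log2 values, to which no further scaling was applied here. Of 25388 transcripts, 13257 carried 1 gene symbol in the platform annotation, 427 several and 11704 none. The symbols of all 37 carriers matched RefSeq by gene ID. SINS high was compared with SINS low over all transcripts with limma 3.58.1 (lmFit, eBayes) under R 4.3.3, with the group as the only term and with Benjamini-Hochberg adjustment over all 25388. Single genes and pair differences were also tested by exact permutation over the 12 piglets. Whether piglets shared a litter is not stated. The p-values treat the 12 piglets as independent, and could be too small if littermates fell in the same group. The carriers, substrate groups and lists were chosen from textbook membership with earlier results of these data known.

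Per-piglet values are given for carriers with an unadjusted p below 0.05, and for the brightest carrier and the one with the smallest p in each substrate group. SLC25A21, SLC25A37, SLC25A25, UCP2 and the other transcripts of SLC25A47 were added after their values were seen. From each list of partners the 2 genes with the smallest p were named, and further called genes after their values were seen. As alternatives, the methods' t-test, robust eBayes with an intensity trend, array weights, a filter on the dimmest 25% of transcripts, a further quantile normalization, centring on the array medians, a replicate block, a fold change above 1.5, the mean of all transcripts of a gene and the removal of each array were run. The limma calls were also run on simulated arrays with independent noise for each transcript. These do not copy variation shared between transcripts, and no result here rests on them. Python 3.11.15 and matplotlib 3.10.9 were used for the figures.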

Additional observations from a re-analysis of the deposited data

Results flagged for a closer look

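For each of the 37 carriers, 1 piglet standing apart from the other 5 of its group was looked for with Dixon's test, in 74 groups. It marked 8, and chance marks about 1 in 20 groups. The share over all genes was not computed, and the 74 groups come from the same arrays. Whether the carriers differ from other genes in this was not tested. In SINS high replicate 6, MTCH2 was 9.28 with the next piglet at 8.77, and SLC25A17 was 6.80 with the next at 6.53. In SINS low replicate 6, SLC25A25 was 7.73 with the next piglet at 6.45, and SLC25A3 was 9.67 with the next at 9.47. On the low side, SLC25A12 was 5.79 in SINS low replicate 3 (next 6.14), SLC25A21 was 6.08 in SINS low replicate 5 (next 6.80), SLC25A53 was 2.33 in SINS low replicate 1 (next 2.71) and UCP2 was 4.30 in SINS low replicate 4 (next 4.97).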

How the results depend on the processing

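SLC25A11 passed the filter under every alternative run, with a log2(FC) from −0.76 to −0.53 when each array was left out and from −0.63 to −0.61 otherwise. SLC25A22 lost the call without SINS high replicate 1 or 3 and at a fold change above 1.5, with −0.62 to −0.34 over the arrays left out. With each array left out, 1 to 4 carriers were lower and 0 to 1 higher. There were 4 lower carriers without SINS low replicate 5 and without SINS high replicate 6, when 4.81% and 6.20% of all genes were down-regulated. A fold change above 1.5 left 1 lower carrier, and array weights gave 1 higher carrier, SLC25A37, and 3 lower, with SLC25A21 added, as did median centring for the lower ones. Among all transcripts, 165 higher and 251 lower ones exceeded a fold change of 1.5, and leaving out 1 array gave 428 to 893 higher and 550 to 1254 lower, the largest counts without SINS high replicate 6. The median log2(FC) of the carriers stayed between −0.12 and −0.05. The signs of 3 pair differences near 0 changed when single arrays were left out, SLC25A24 minus SLC25A25 (−0.23 to 0.21), SLC25A12 minus SLC25A13 (−0.068 to 0.12) and UCP2 minus UCP3 (−0.17 to 0.17). MTCH1 minus MTCH2 was 0.40 without SINS high replicate 6 (exact permutation p = 0.00433, unadjusted). With all piglets it was 0.29 (exact permutation p = 0.0996, adjusted 0.597). Since replicate 6 held the highest MTCH2 value of its group, leaving it out enlarges the difference by construction and adds no evidence. The causes were not tested. With the replicate number as a block, limma called the same 2 carriers, with −0.62 for SLC25A11 and −0.46 for SLC25A22. Deviations of piglets with the same number correlated by 0.00 to 0.34, over 0.1 in 2 of 6 pairs, and 3 of 12 piglets correlated best with their own number, so the number was not taken as a pairing. With 6 arrays a group the 95% intervals of the carriers had half-widths of 0.16 to 1.06, and 28 of the 37 reach a 1.3-fold change.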
